A study of Mus musculus with 10 samples.

Results

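The guanylate-binding protein (Gbp) genes were picked out by symbol: the rows of the deposited table whose gene name was Gbp2, Gbp2b, Gbp3, Gbp4, Gbp5, Gbp6, Gbp7, Gbp8 or Gbp9. All 9 were found, among 16936 protein-coding genes. RNA was sequenced from 10 samples of murine macrophages grown out of bone marrow over 7 days in GM-CSF (50 ng/mL). Of these, 5 were untreated and 5 received PLG, which the design text names as human plasminogen, for 24 h. No label gives a strain, an age, a genotype or a vehicle for the untreated samples, and none names the animal or culture behind a replicate. The p-values below therefore measure the spread between these samples, which may be technical. GM-CSF cultures of marrow can hold cells with dendritic features beside macrophages.

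Guanylate-binding proteins are large GTPases of the dynamin superfamily that are induced by interferons, most strongly by interferon gamma, and also during responses to microbial products. They assemble on pathogen-containing vacuoles and on cytosolic bacteria, and help to open these membranes and to feed the caspase-11 and Aim2 inflammasome pathways. In the mouse the genes lie in a cluster on chromosome 3 and another on chromosome 5. Their promoters are known for elements of the interferon-stimulated response type (ISRE), which bind IRF and STAT complexes.

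On the GRCm38 coordinates of the table, Gbp5, Gbp7, Gbp3, Gbp2b and Gbp2 lie in this order on the plus strand of chromosome 3, from 142493978 (start of Gbp5) to 142638008 (end of Gbp2). Gbp8, Gbp9, Gbp4 and Gbp6 lie on the minus strand of chromosome 5, from 105014150 (start of Gbp8) to 105293698 (end of Gbp6). The start regions of the chromosome 3 genes are shown because all 5 genes hold the same short element and yet differed widely in level and response. Each window runs from 250 bases before to 50 after a RefSeq start on GRCm38.p6, 5′ to 3′ on the plus strand, with every match to the ISRE core in capitals. The core searched was GAAA, any 2 bases and GAAA again, which on the other strand reads TTTC, any 2 bases and TTTC, and both strands were searched.
Gbp2, chr3:142620413-142620712: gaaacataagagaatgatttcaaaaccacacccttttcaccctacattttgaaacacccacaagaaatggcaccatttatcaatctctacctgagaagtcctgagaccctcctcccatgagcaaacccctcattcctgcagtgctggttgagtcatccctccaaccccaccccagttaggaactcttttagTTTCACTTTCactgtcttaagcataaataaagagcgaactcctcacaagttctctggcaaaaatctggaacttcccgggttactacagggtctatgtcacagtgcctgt
Gbp2b, chr3:142594597-142594896: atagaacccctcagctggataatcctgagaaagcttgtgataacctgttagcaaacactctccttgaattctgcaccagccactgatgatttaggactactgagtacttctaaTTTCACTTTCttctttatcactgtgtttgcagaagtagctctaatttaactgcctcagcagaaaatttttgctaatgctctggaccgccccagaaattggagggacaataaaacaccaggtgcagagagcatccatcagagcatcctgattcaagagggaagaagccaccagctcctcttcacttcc
Gbp3, chr3:142559794-142560093: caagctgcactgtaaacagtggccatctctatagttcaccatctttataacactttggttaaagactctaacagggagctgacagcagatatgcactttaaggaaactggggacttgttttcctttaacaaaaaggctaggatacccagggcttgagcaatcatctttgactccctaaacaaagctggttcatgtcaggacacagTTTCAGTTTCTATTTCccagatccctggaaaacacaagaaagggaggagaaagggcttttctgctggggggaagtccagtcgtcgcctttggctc
Gbp5, chr3:142496684-142496983: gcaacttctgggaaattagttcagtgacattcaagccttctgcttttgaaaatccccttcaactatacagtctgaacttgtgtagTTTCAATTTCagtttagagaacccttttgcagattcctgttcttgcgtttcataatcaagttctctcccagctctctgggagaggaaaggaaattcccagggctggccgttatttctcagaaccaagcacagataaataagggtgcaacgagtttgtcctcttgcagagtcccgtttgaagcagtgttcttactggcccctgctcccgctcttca
Gbp7, chr3:142530086-142530385: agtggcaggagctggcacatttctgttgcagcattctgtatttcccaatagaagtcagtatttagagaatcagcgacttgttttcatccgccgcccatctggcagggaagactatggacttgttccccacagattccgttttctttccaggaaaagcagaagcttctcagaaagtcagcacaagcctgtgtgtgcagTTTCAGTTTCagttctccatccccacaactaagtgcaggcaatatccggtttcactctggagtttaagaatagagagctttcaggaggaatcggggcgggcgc

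The core was found in a window of each of these 5 genes, always as the TTTC form on the strand of the gene, against 3.44% of the 32851 start windows in the RefSeq table. A second listed start of Gbp3 (142560106 to 142560405) held none. The match began 59 bases before the start in Gbp2, 53 in Gbp7, 45 and 39 in Gbp3 (overlapping matches), 137 in Gbp2b and 165 in Gbp5. Gbp2 and Gbp2b carried the same 10 letters, TTTCACTTTC, and Gbp7 and Gbp3 shared TTTCAGTTTC. The STAT-type element (TTC, any 3 bases, GAA), its own reverse complement, occurred in Gbp5 and Gbp7 only, with 2 matches each, against 8.30% of all windows. The NF-kB-type element (GGGA, any base, TTTCC) occurred in 1 of the 5 genes, Gbp5, as GGAAATTCCC on the gene's strand 77 bases before the start, against 0.411% of all windows. No match overlapped a match to another of these motifs. A match describes the letters of the window and is not evidence of binding. Gbp4, Gbp6, Gbp8 and Gbp9 had no entry in the start-window table.

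The libraries held 28426106 to 37680105 reads on the genes of the table in untreated samples and 33547089 to 64214551 with PLG. Levels are FPKM, fragments per kilobase of gene length scaled to the reads of each library, which can be set side by side between genes within limits. For the members this length spans the exons of all transcripts of a gene, whichever are made. Part of their sequence is also shared with other genes, as given below. Both limit the order of levels and the shares within the family. The repeat-like gene models Gm10800, Gm10801 and Gm21738, the 3 genes with the highest maximum over the samples, took 0.8% to 27.8% of a sample's summed FPKM, least in PLG 3, PLG 4 and untreated 2. With these models removed and the columns brought to a common sum, and again without those 3 samples, all 9 members kept the calls given below.

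With PLG, the family as a whole was higher and its makeup differed from that in untreated samples. Summed over the 9 genes, the level was 89.6 ± 8.21 FPKM (SD, n = 5) in untreated samples and 505.8 ± 23.3 FPKM (SD, n = 5) with PLG, a ratio of means of 5.65. Of the single genes, 8 were higher and Gbp8 was lower in limma's test across all genes, at a Benjamini-Hochberg adjusted p under 0.05. This threshold was passed by 60.4% of the 9997 genes tested, 29.1% as higher and 31.3% as lower, so that passing is common in these data. The test took in genes at 1 FPKM or more in 5 of the samples. All 9 members met this, Gbp6 only through the PLG group. Gbp4 and Gbp2b also needed PLG samples, since not all of their untreated samples reached 1 FPKM. For Gbp4, untreated 4 was at 0.864 FPKM, and for Gbp2b, untreated 3 and 4 were at 0.423 and 0.521 FPKM. In a fit with no such filter, 7 members were higher and 1 lower, and the gene lost was Gbp2b. In that fit 39.9% of genes passed, 19.8% as higher and 20.1% as lower. The PLG and untreated values did not overlap for 8 members, 7 higher and 1 lower, where 47.2% of the tested genes did not overlap, 22.7% higher and 24.5% lower. A passing log2 fold change of at least 1 was found for 7 members, Gbp2, Gbp3, Gbp4, Gbp5, Gbp6, Gbp7 and Gbp9, against 8.35% of tested genes. One of at least 2 was found for 5, which are these without Gbp7 and Gbp9, against 2.75%. The median log2 fold change of the 9 genes was 2.18, beside -0.02 over all tested genes. In bulk RNA a larger share of expressing cells and more RNA per cell cannot be told apart.

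**Figure D1:**
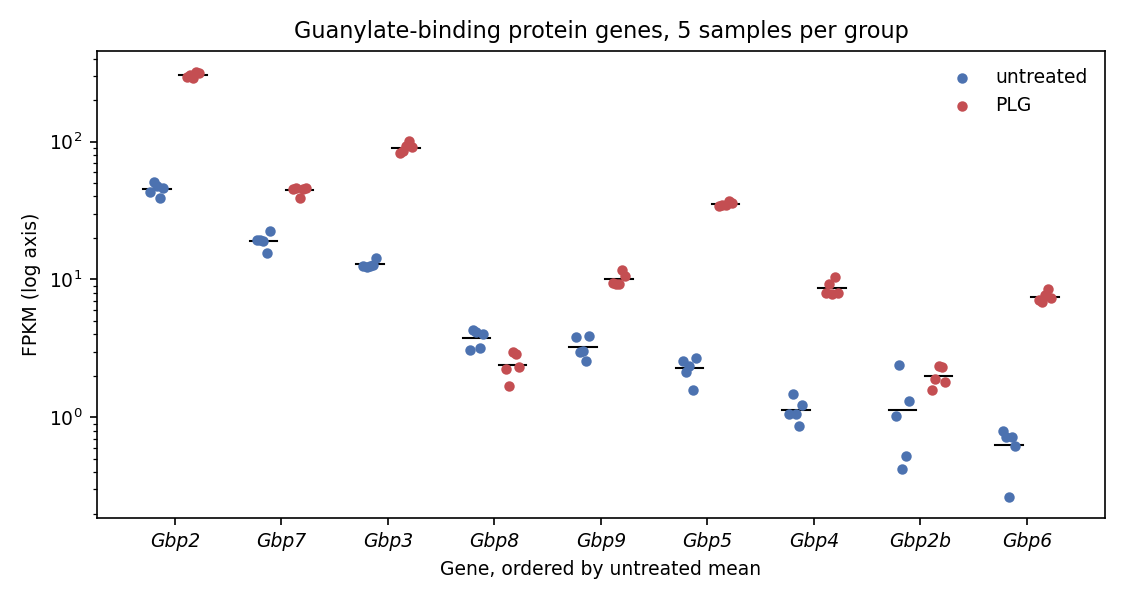
FPKM of the 9 guanylate-binding protein genes on a log axis; each point is 1 sample (5 untreated, 5 PLG) and the short bar is the group mean. The groups are apart for every gene except Gbp2b, and Gbp8 is the 1 gene whose PLG points lie under its untreated points.

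The most abundant member in both groups was Gbp2 (ENSMUSG00000028270.12, chr3:142620602-142638008), which encodes a prenylated family member that targets vacuoles and bacteria. Its untreated samples 1 to 5 held 43.1, 51.3, 48.0, 39.0 and 45.7 FPKM. The PLG samples 1 to 5 held 293, 303, 291, 319.9 and 316 FPKM. The lowest PLG sample stood far above the highest untreated one, and the samples of a group differed little among themselves. On the log2(FPKM + 1) scale the difference was 2.72 (SE 0.0657, limma adjusted p = 7.16e-13), and the ratio of mean FPKM was 6.71. Between 3134 and 4727 reads lay behind each untreated value and 27669 to 56288 behind each PLG value.

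Gbp3 (ENSMUSG00000028268.14, chr3:142560026-142573209), a family member that is not prenylated, ran from 12.3 to 14.3 FPKM in untreated samples (median 12.5) and from 82.1 to 100.2 FPKM with PLG (median 91.8). The difference of 2.72 on the log2(FPKM + 1) scale (SE 0.0603, limma adjusted p = 3.36e-13) was close to that of Gbp2, and the 95% intervals of the pair, 2.59 to 2.85 for Gbp3 and 2.58 to 2.87 for Gbp2, overlapped over most of their length.

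Gbp5 (ENSMUSG00000105504.4, chr3:142493978-142522344), a prenylated member known for promoting inflammasome assembly and for acting at the Golgi, had the largest log2 fold change of the 9. The untreated samples 1 to 5 were at 2.57, 2.14, 2.36, 1.59 and 2.68 FPKM. The PLG samples 1 to 5 were at 34.3, 34.8, 34.5, 37.1 and 36.2 FPKM. All untreated samples were low and the PLG samples lay close together. The log2 fold change was 3.49 (95% interval 3.30 to 3.67, SE 0.0872, limma adjusted p = 1.04e-12), and 65 of the 9997 tested genes, Gbp5 included, reached a value this high. The ratio of mean FPKM was 15.6. The added 1 weighs on such low untreated levels, so the value was 3.93 with a pseudocount of 0.1 and 2.48 with 5.

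Gbp7 (ENSMUSG00000040253.15, chr3:142530342-142550149), which is known for roles in defence at vacuoles and in oxidase assembly, was the second most abundant member in untreated samples and rose less than its neighbours. It ran from 15.6 to 22.4 FPKM untreated (median 19.2) and from 39.2 to 46.2 FPKM with PLG (median 45.5). The log2 fold change was 1.18 (SE 0.0810, limma adjusted p = 2.10e-08). Its 95% interval of 1.01 to 1.36 lay below those of Gbp2, Gbp3 and Gbp5. In GENCODE M21 the processed pseudogene Gm43802 shares 637 of the 5614 exonic bases of Gbp7.

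Gbp2b (ENSMUSG00000040264.10, chr3:142594847-142619179), the gene formerly called Gbp1, stood apart from its neighbour Gbp2 in both level and response. The untreated samples 1 to 5 were at 1.03, 2.39, 0.423, 0.521 and 1.32 FPKM. The PLG samples 1 to 5 were at 1.57, 1.90, 2.35, 2.32 and 1.81 FPKM. The groups overlapped, since untreated 2 was above every PLG sample. The log2 fold change was 0.55 (95% interval 0.12 to 0.98, SE 0.20, limma adjusted p = 0.0289), and the two-sided exact permutation test over the 252 assignments gave p = 0.0635. The limma call was lost without untreated 3 (adjusted p = 0.0738), untreated 4 (0.0755), PLG 3 (0.0636) or PLG 4 (0.0622), and with no filter (0.0733). It was kept by voom on the recovered reads, with a log2 fold change of 1.06. Over all its alternatives the adjusted p lay between 8.22e-04 and 0.0755. Gbp2 stood at 21.4 to 113 times the FPKM of Gbp2b in untreated samples and at 124 to 186 times with PLG. Of the stretches of 50 bases in Gbp2b transcripts, 1.84% occur in Gbp2 transcripts.

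**Figure D2:**
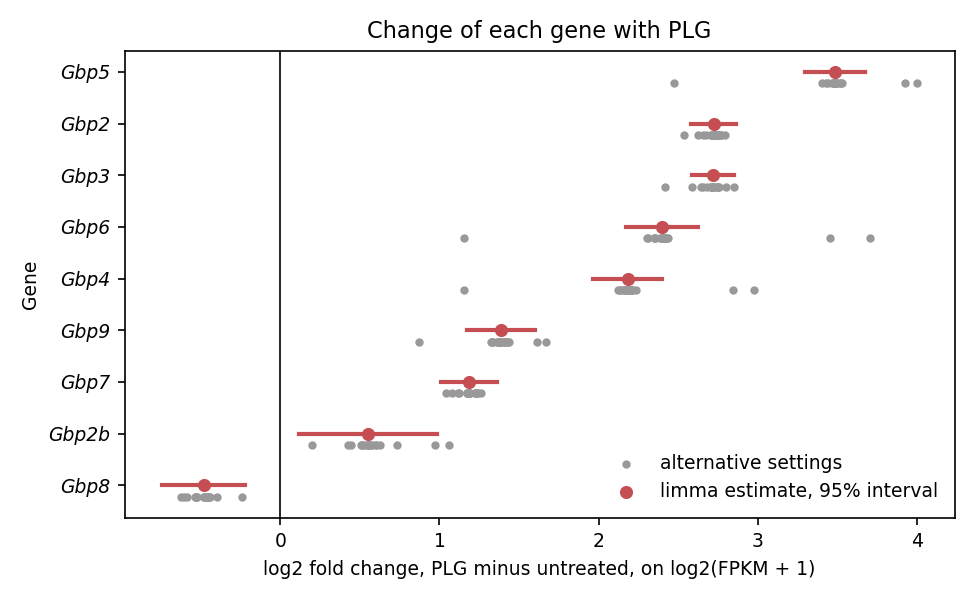
Log2 fold change (PLG minus untreated, on log2(FPKM + 1)) of each gene; red points and lines are limma estimates with 95% intervals, and grey points the same value under the alternative settings. Gbp5 is highest at 3.49, Gbp2b lies closest to 0 among the genes that rose, and Gbp8, at -0.48, stays below 0 in every setting that tested it.

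On chromosome 5 the members went in opposite directions. Gbp8 (ENSMUSG00000034438.16, chr5:105014150-105139540) fell. Its untreated samples 1 to 5 held 3.08, 4.26, 4.16, 3.16 and 4.05 FPKM. Its PLG samples 1 to 5 held 2.23, 1.68, 2.96, 2.88 and 2.32 FPKM. The highest PLG sample, PLG 3, lay just under the lowest untreated sample, untreated 1. The log2 fold change was -0.48 (95% interval -0.74 to -0.22, SE 0.121, limma adjusted p = 0.00359), and the exact two-sided permutation test gave p = 0.00794, the smallest that 5 against 5 samples allow. The untreated mean was 1.55 times the PLG mean. A fall of this size is not unusual here, since 1678 of the 9997 tested genes had a value this low or lower. The fall passed in each of the 20 alternatives that tested the gene, with adjusted p between 0.00106 and 0.0116.

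Gbp9 (ENSMUSG00000029298.15, chr5:105077630-105139539) and Gbp4 (ENSMUSG00000079363.7, chr5:105115767-105139586), whose models overlap that of Gbp8, rose. Gbp9 ran from 2.58 to 3.88 FPKM in untreated samples (median 3.04) and from 9.32 to 11.7 FPKM with PLG (median 9.43). Its log2 fold change was 1.39 (SE 0.0991, limma adjusted p = 3.33e-08). Gbp4 ran from 0.864 to 1.48 FPKM untreated (median 1.06) and from 7.84 to 10.4 FPKM with PLG (median 8.03). For Gbp4 the log2 fold change was 2.18 (SE 0.10, limma adjusted p = 3.34e-10), 2.84 with a pseudocount of 0.1 and 1.16 with 5, and the ratio of mean FPKM was 7.65. Within single samples, Gbp9 stood at 0.888 ± 0.219 times the FPKM of Gbp8 in untreated samples and at 4.32 ± 0.875 times with PLG (SD, n = 5), with no overlap between the groups.

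The overlap between these 3 models is small. In GENCODE M21 some transcripts of Gbp8 and Gbp9 begin in the first exon of Gbp4. Gbp8 shares 61 of its 3443 exonic bases with Gbp4, and Gbp9 shares 60 of its 5173 with Gbp4. Counting all sequence shared with any other gene's transcripts, 18.1% of the 50-base stretches of Gbp8 also occur elsewhere, against 8.05% for Gbp9 and 7.78% for Gbp4. The other partner genes of Gbp8 include Gbp11, which is not analysed here. How the reads of shared stretches were counted is not given in the sources used here.

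**Figure D3:**
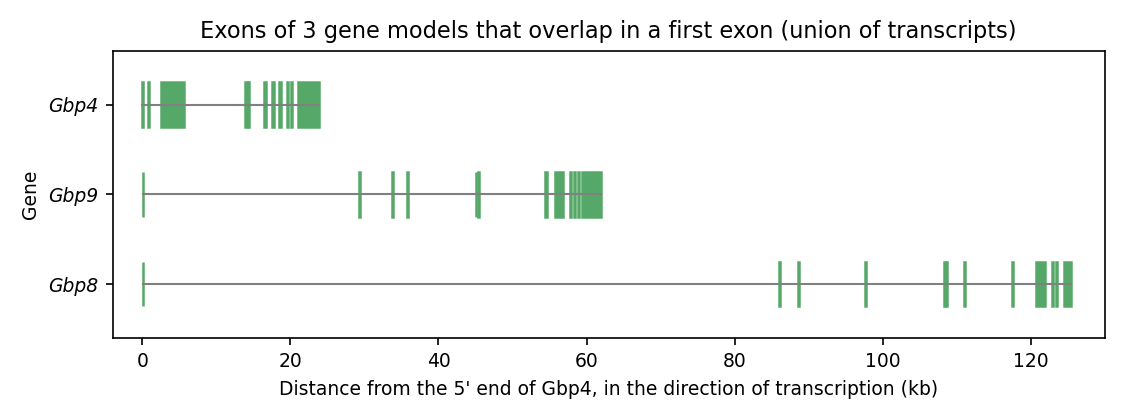
Exons (green blocks, union of GENCODE M21 transcripts) of Gbp4, Gbp9 and Gbp8, drawn to scale in kb from the 5′ end of Gbp4 along the direction of transcription. The models meet only in the first exon at the left; the remaining exons of the 3 genes lie apart.

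Gbp6 (ENSMUSG00000104713.4, chr5:105270702-105293698) had the lowest untreated mean of the family and, of the 9, shared the largest part of its sequence with other genes. The untreated samples 1 to 5 were at 0.799, 0.725, 0.266, 0.714 and 0.621 FPKM. The PLG samples 1 to 5 were at 7.07, 6.86, 7.76, 8.58 and 7.31 FPKM. Every untreated sample was below 1 FPKM and every PLG sample far above it. The log2 fold change was 2.40 (SE 0.104, limma adjusted p = 2.00e-10), and the ratio of mean FPKM was 12.0. The scale matters at these levels: the value was 3.45 with a pseudocount of 0.1, 1.15 with 5 and 3.70 with voom on recovered reads, of which the untreated samples held 57 to 202. Of the 50-base stretches in Gbp6 transcripts, 70.7% occur in transcripts of other genes, above all the overlapping model Gm43302 (65.0%) and Gbp10 (45.9%).

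Gbp10, the neighbour that resembles Gbp6, shares 84.1% of such stretches with other genes and was close to 0. The untreated samples together held 0 reads and the PLG samples 96, spread over 4 of the 5. Per read sequenced that is 24.3-fold higher when 3 reads are taken for the whole untreated group as its floor. This floor covers counting error of the untreated 0 only, and neither that of the 96 PLG reads nor the spread between samples. The gene lay under the filter. In the fit without it limma's adjusted p was 0.0523, and the exact two-sided permutation test gave p = 0.0476. Reads of Gbp6, Gbp10 and Gm43302 cannot be told apart with certainty, and Gm43302 is not analysed here.

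The order of levels within the family differed between the groups. In untreated samples Gbp2, Gbp7 and Gbp3 led, at means of 45.4, 19.1 and 12.9 FPKM, and their ranges over samples did not overlap. Gbp8 (3.74), Gbp9 (3.26) and Gbp5 (2.27) followed, and neighbours in that order overlapped. Gbp4, Gbp2b and Gbp6 came last, at 1.14, 1.14 and 0.625 FPKM, again with overlapping neighbours. With PLG the order was Gbp2 (305), Gbp3 (90.6), Gbp7 (44.5) and Gbp5 (35.4), with no overlap between neighbours. Gbp9, Gbp4 and Gbp6 followed at 10.1, 8.70 and 7.52 FPKM, with overlap between neighbours, and Gbp8 (2.41) and Gbp2b (1.99), which overlapped, were lowest.

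As shares of the summed FPKM of the family, the genes below kept their order of groups in every sample. Gbp2 made up 47.5% to 52.9% in the untreated samples and 59.4% to 60.8% with PLG. Gbp7 went the other way, from 20% to 23.3% untreated to 8.04% to 9.39% with PLG, although its own level rose. The share of Gbp5 was 2.07% to 2.95% in untreated samples and 6.89% to 7.10% with PLG, and that of Gbp8 3.53% to 4.59% and 0.336% to 0.606%. For these 4 genes the ranges of the groups did not overlap. The same held for Gbp3 and Gbp6, whose shares were higher with PLG. It also held for Gbp9, at 3.07% to 4.36% untreated and 1.87% to 2.18% with PLG, although its own level rose. The shares are a description with no test, and a share can fall while a level rises.

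**Figure D4:**
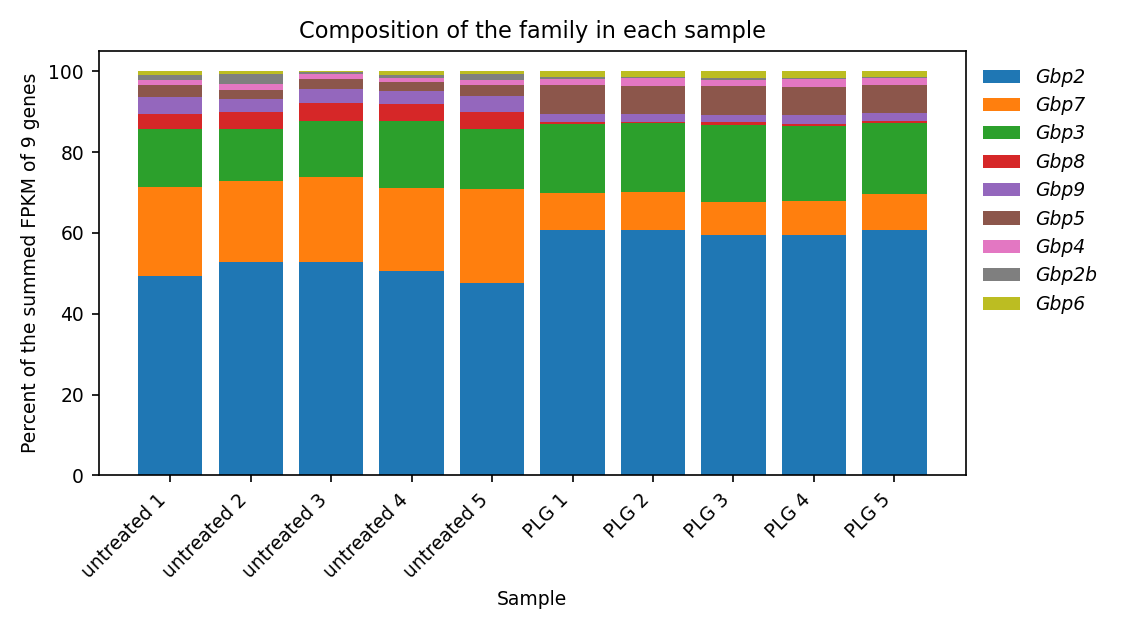
Percent of the summed FPKM of the 9 genes that each gene takes in each of the 10 samples (stacked bars, each adding to 100%). Gbp2 grows from at most 52.9% in untreated samples to at least 59.4% with PLG, while the shares of Gbp7, Gbp8 and Gbp9 shrink.

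Regulators that act upstream of guanylate-binding protein genes were mostly higher with PLG. Of 15 tested genes of interferon receptors, JAK-STAT signalling and interferon regulatory factors, 12 rose and 2 fell. Over all tested genes, 29.1% rose and 31.3% fell. The median log2 fold change of the 15 was 0.92, beside -0.02 over all tested genes. Irf7, a factor of interferon-induced transcription, was at 4.50 ± 1.26 FPKM (SD, n = 5) in untreated samples and at 158 ± 7.98 FPKM with PLG. Stat2, which type I interferon receptors activate, went from 22.6 ± 0.983 to 65.9 ± 2.75 FPKM. Irf8, a myeloid factor of the same family, was at 28.1 ± 2.41 FPKM untreated and 124 ± 6.15 FPKM with PLG. The kinase gene Jak1 did not pass (51.0 ± 2.47 FPKM untreated, 52.1 ± 0.335 FPKM with PLG, limma adjusted p = 0.564). The 2 that fell, named after their values were seen, were Ifngr1, a chain of the interferon gamma receptor (26.7 ± 2.48 to 15.0 ± 0.983 FPKM), and Irf2 (9.99 ± 1.05 to 8.46 ± 0.343 FPKM).

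The immunity-related GTPases, which work together with guanylate-binding proteins at vacuoles, rose in all 8 tested cases (of 9 in the table), where 29.1% of all tested genes rose. The median log2 fold change of the 8 was 1.51. Ifi47 went from 8.55 ± 0.952 to 41.6 ± 2.12 FPKM, Irgm1 from 8.88 ± 1.16 to 30.3 ± 1.35 FPKM and Irgm2 from 6.53 ± 0.943 to 17.3 ± 1.31 FPKM. Iigp1, at 0.0892 ± 0.0926 FPKM untreated and 1.79 ± 0.262 FPKM with PLG, and Tgtp2, at 0.441 ± 0.357 and 5.05 ± 0.777 FPKM, passed the filter through the PLG group only, so that the count and the median are a description. F830016B08Rik also needed PLG samples to meet the filter, with an untreated median of 0.926 FPKM and a lowest PLG value of 1.34 FPKM. Tgtp2 and F830016B08Rik were named after their values were seen. With a filter of 5 FPKM, 5 members of this list were left that passed.

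Genes of the inflammasome pathways that guanylate-binding proteins feed moved both ways. Of 9 tested, 6 rose and 2 fell, where 29.1% of all tested genes rose and 31.3% fell. The median of the 9 was 0.47 on the log2 scale. Casp4, the gene of caspase-11, went from 3.62 ± 0.80 to 15.4 ± 0.888 FPKM, and the sensor gene Nlrp3 from 15.3 ± 1.78 to 49.9 ± 1.65 FPKM. Ninj1, which ruptures the membrane of dying cells, went from 72.9 ± 3.95 to 105 ± 4.72 FPKM. The adaptor gene Pycard fell from 17.3 ± 0.734 to 6.56 ± 0.827 FPKM, as did Naip5, a sensor gene named after its values were seen (9.52 ± 1.12 to 6.84 ± 0.408 FPKM). The DNA sensor gene Aim2 did not pass, at 14.1 ± 1.40 FPKM untreated and 13.4 ± 0.415 FPKM with PLG (limma adjusted p = 0.358).

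**Figure D5:**
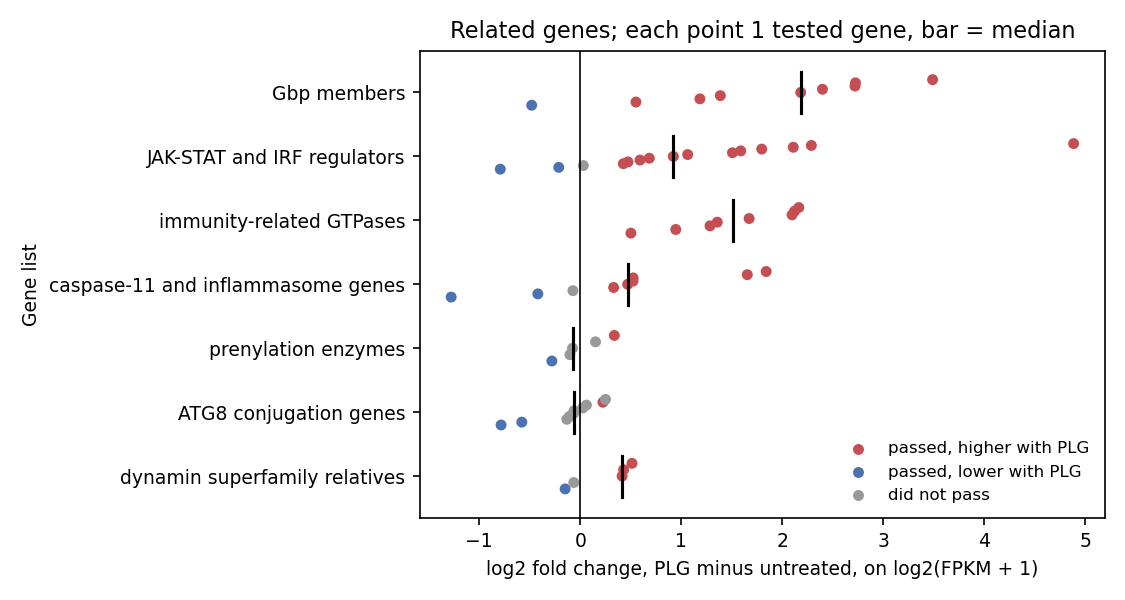
Log2 fold change (PLG minus untreated, on log2(FPKM + 1)) of the 9 guanylate-binding protein genes and of the tested genes of 6 related lists; each point is 1 gene, coloured by limma's call, and each bar is a list's median. The family and the immunity-related GTPases have medians of 2.18 and 1.51, and the prenylation and ATG8 lists lie near 0.

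Genes whose products modify guanylate-binding proteins or steer them to membranes differed less. Beside the counts in this paragraph stand the shares over all tested genes, 29.1% that rose and 31.3% that fell. Of 5 prenylation enzymes, which attach lipid to some family members or modify the prenylated end, 1 rose and 1 fell (median -0.08). Icmt, which methylates the prenylated end, went from 8.59 ± 0.426 to 11.1 ± 0.748 FPKM, and Fnta, the subunit that farnesyl and geranylgeranyl transferases share, fell from 10.7 ± 1.70 to 8.53 ± 0.770 FPKM. Rce1 and Pggt1b did not pass (limma adjusted p = 0.233 and 0.310). Without untreated 1, untreated 2, PLG 2 or PLG 5, 1 enzyme passed in place of 2. Of 10 ATG8 conjugation genes, whose products guide these GTPases to vacuoles, 1 rose and 2 fell (median -0.06), and 5 passed with quantile normalization. Atg7 fell from 16.4 ± 1.94 to 9.09 ± 0.502 FPKM and Atg3 from 23.2 ± 1.42 to 15.2 ± 1.05 FPKM, and Atg12 rose from 7.90 ± 0.527 to 9.40 ± 0.711 FPKM. Gabarap, the most abundant gene of the list, did not pass (134 ± 3.93 FPKM untreated, 137 ± 16 FPKM with PLG). A separate list held relatives in the dynamin superfamily, of which 5 were tested, 3 rose and 1 fell (median 0.41). Those that rose were the atlastin gene Atl3 (16.6 ± 1.48 to 24.1 ± 1.77 FPKM), the mitochondrial fission gene Dnm1l (14.7 ± 1.98 to 19.8 ± 0.857 FPKM) and Gvin1, a very large interferon-inducible GTPase (1.87 ± 0.471 to 2.84 ± 0.499 FPKM). Dnm2, a dynamin of endocytosis, was the one that fell (49.1 ± 1.56 to 44.2 ± 2.59 FPKM). Mx1, Mx2 and Irgb10 are not analysed here.

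Macrophage identity was checked with 8 marker genes, all of which were tested. With PLG 2 rose and 5 fell, where 29.1% of all tested genes rose and 31.3% fell. The 2 that rose were Cd14 (33.7 ± 2.92 to 508 ± 48.1 FPKM) and Adgre1 (80.0 ± 4.80 to 177 ± 9.79 FPKM). The 5 that fell were Lyz2, Mertk, Cd68, Itgam and Csf1r. The summed level of the 8, most of it Lyz2, was 5870 to 7390 FPKM untreated and 3140 to 3240 FPKM with PLG. Of 5 tested dendritic cell markers 3 rose and 2 fell, with a sum of 40.3 to 69.0 FPKM untreated and 518 to 585 FPKM with PLG that was mostly Ccr7 (38.1 ± 10.8 and 542 ± 27.1 FPKM). The 2 dendritic cell markers that fell were Clec9a (9.67 ± 1.33 to 2.94 ± 0.163 FPKM) and Cd209a (2.995 ± 1.26 to 0.0142 ± 0.0318 FPKM). Among the 5 tested, Flt3 passed the filter only through the PLG group and Cd209a only through the untreated group. Markers of T and NK cells (7 of 7) and of B cells (4 of 4) stayed below 1 FPKM in every sample, with sums of 0.0900 to 0.815 and 0.177 to 0.720 FPKM. Ifng, the interferon gamma gene, was listed at 0 in all untreated samples and at 0.0372 ± 0.0552 FPKM with PLG. Of 3 tested neutrophil and mast cell markers 1 rose, with sums of 7.39 to 20.6 FPKM untreated and 16 to 22.2 FPKM with PLG. Among 5 stromal and endothelial markers Pdgfrb alone was tested and rose (0.253 ± 0.0786 to 5.18 ± 0.256 FPKM), having passed the filter only through the PLG group. The list's sums were 1.04 to 1.92 FPKM untreated and 5.90 to 7.07 FPKM with PLG. The part of these markers in the results on guanylate-binding protein genes was not tested.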

How the data were processed

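RNA was sequenced from 10 macrophage samples, 5 untreated and 5 PLG, grouped by their titles. The authors deposited FPKM values for protein-coding genes, beside each gene's length and location, per the file headers. Tools named in the submitters' processing notes, without their order, are STAR 2.7.3a, featureCounts 2.0.0, cutadapt 2.10, DESeq2 1.24.0 and FastQC 0.11.9, and the genome is GRCm38.p6. Not given in the sources used here: annotation release, strand setting, handling of shared reads. All 9 members carry the length and position of GENCODE M21.

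Reads were recovered from the steps of FPKM times length. The check took values of shorter genes with few enough reads (803 to 3269 per sample), and 100% were whole within 0.1 read. No member except Gbp2b was among the values checked. Voom on the recovered reads called 6273 genes. The denominators of the recovered reads were 31977229 to 70736995. Groups were compared as log2(FPKM + 1) with limma 3.58.1 in R 4.3.3 (intensity trend, not robust), over genes at 1 FPKM or more in at least 5 samples, with Benjamini-Hochberg adjustment at 0.05. The fit was tested on simulated data. Single genes also had an exact permutation test. Transcripts were compared by stretches of 50 bases in GENCODE M21, and start windows were matched by symbol in the RefSeq table (5 of 9 members). A planned comparison of the proteins was not made. Members and lists were chosen with earlier results of these data known. From each related list the text names up to 4 tested genes with the smallest p and up to 2 abundant ones that did not pass. One gene that this rule names is not reported here. Alternatives were 2 other pseudocounts, other filters, scalings and moderation, a replicate block, voom on recovered reads and leaving out each sample. After seeing the data, removal of 3 repeat-like gene models and of the 3 samples lowest in them were added.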

Additional observations from a re-analysis of the deposited data

Results flagged for a closer look

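In 18 groups of 5 values (9 genes in each treatment group) a single sample stood apart in 2, where chance gives about 1 in 20. Gbp3 in untreated 5 was at 14.3 FPKM, while the other untreated samples lay between 12.3 and 12.8 FPKM. Gbp7 in PLG 3 was at 39.2 FPKM, while the other PLG samples lay between 45.4 and 46.2 FPKM. Both values stayed on their own group's side, and without either sample both genes kept their calls in limma. PLG 3 was also the sample with the smallest share of FPKM in the repeat-like gene models, 0.8%, and the part of that in the Gbp7 value was not tested.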

How the results depend on the processing

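All members except Gbp2b kept direction and call in each alternative that tested them. The number of genes passing was 4318 to 6755, against 6040. With a filter of 5 FPKM, 0 members were lower, because Gbp8 was no longer tested, and 5 immunity-related GTPases passed, fewer being tested. Prenylation enzymes passing numbered 1 to 2 when single samples were left out, and 1 without the 3 samples lowest in the repeat-like gene models. With quantile normalization 5 ATG8 genes passed. The cause was not tested. With only the given strand searched, 0 member genes held the ISRE core and 0 the NF-kB-type element, since all matches were on the other strand. Same-numbered samples did not deviate together (correlations of -0.121 to 0.0988), so numbers were not taken as pairs. With a replicate block 5785 genes passed, with 8 members higher and 1 lower, and only untreated 1 correlated best with its own number. Members under about 1 FPKM rest on few reads, and their fold changes depend on the pseudocount.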

Other observations

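Among the genes outside the family, 25 of 9988 tested genes had a Pearson correlation of at least 0.99 over the 10 samples with the mean standardised profile of the 9 members. The highest were Prdx6, an antioxidant peroxiredoxin (r = 0.998, 20.1 ± 3.37 to 76.8 ± 8.08 FPKM), Bcl2a1a, a survival gene of the BCL2 family (r = 0.997, 27.2 ± 6.61 to 105 ± 11.6 FPKM), Zwint (r = 0.997, 7.66 ± 1.16 to 21.7 ± 1.72 FPKM), the integrin chain gene Itgb1 (r = 0.995, 127 ± 8.47 to 202 ± 7.31 FPKM) and the importin gene Kpna4 (r = 0.995, 25.0 ± 2.61 to 41.0 ± 1.42 FPKM). These values describe likeness in this set of samples, where the difference between the groups makes up most of each profile. Reads of Bcl2a1a may be shared with its close paralogs.

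The ISRE core that all 5 matched members hold was also counted over all tested genes, by their response to PLG. Of the tested genes with a start window, 133 of 2327 that rose held it (5.72%), 85 of 2522 that fell (3.37%) and 97 of 3223 that did not pass (3.01%). Among the 210 that rose by a log2 fold change of at least 2, 31 held it (14.8%). These counts include the members, are a description and carry no test.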
